A study of Mus musculus with 2 samples.

Results

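The 9 genes examined here, Fos, Fosb, Fosl2, Jun, Junb, Jund, Atf3, Ier2 and Dusp1, are AP-1 subunits and immediate early genes that were chosen by their symbols, and each was found once among the 32285 features of both libraries. They were followed in splenic regulatory T cells (Tregs) of 7-day-old C57BL/6J mice, of which each genotype gave 1 droplet-based single-cell RNA-seq library. In both genotypes the Foxp3 locus carries a YFP-tagged Cre recombinase (Foxp3-Cre), which acts in cells that express Foxp3, the factor that defines Tregs. The WT mice carried this allele alone, and the KO mice (Zfp335fl/flFoxp3-Cre) also carried floxed Zfp335, a zinc finger transcription factor gene. Live CD4+YFP+ cells had been sorted from spleens pressed apart in cold buffer, and the number of mice behind each library is not given in the sources used here.

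AP-1 is a dimer of basic leucine zipper proteins. FOS proteins need a JUN or another leucine zipper partner, whereas JUN proteins can also pair with each other. Signals through the T cell receptor and its MAP kinases switch these genes on within minutes and without new protein synthesis, and the transcripts are short-lived. In T cells AP-1 binds DNA together with NFAT at cytokine genes, and in Tregs JUNB and BATF-containing dimers are known for supporting the effector programme. The same genes also respond to the handling of tissue before sequencing.

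Barcodes were required to hold 300 or more genes, and no more than 5% of their transcripts could be mitochondrial, which left 8053 of 14524 WT and 13767 of 18134 KO barcodes. Each transcript was counted once by its unique molecular identifier (UMI), and the kept barcodes held a median of 5061 UMIs in WT and 2713 in KO. Clustering without the 9 genes gave 4 named T-lineage states. These were resting-like (2227 WT and 4906 KO barcodes, with Dapl1 and Ly6c1 among the leading genes), activated central-like (513 and 1198, Nefh and Tnfrsf9), cycling-like (660 and 1086, histone genes) and effector-like (2418 and 113, Klrg1, Cxcr3 and S100a4). Of the 7529 WT and 13057 KO T-lineage barcodes, the remainder lay in clusters that stayed unnamed, among them 41 WT and 8 KO barcodes of cluster 13, which was led by the macrophage genes C1qb, C1qa and C1qc and is part of the T-lineage sums. Cluster 2 (137 WT, 4633 KO) was shallow and held haemoglobin and granule transcripts, cluster 4 (1521 WT, 357 KO) was shallow and led by Gm26917, AY036118 and Lars2, and cluster 7 (12 WT, 756 KO) was led by granule genes. Zfp335, the deleted gene, stood at 8.18 CPM (its UMIs as a rate per fixed number of UMIs counted) in WT and 0.799 in KO T-lineage barcodes, a KO to WT ratio of 0.0978 (0.0694 to 0.135). Foxp3 stood at 61.6 CPM in WT and 60.9 in KO resting-like barcodes, and the 7 T-lineage markers summed to 7228 and 7229 CPM there. Among all barcodes 70 barcode sequences occurred in both libraries, and 29 among the kept ones.

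With 1 library per genotype no test between genotypes was possible. Ranges in parentheses are exact 95% intervals and cover counting error only, not the spread between mice. Each UMI stands for 1 captured transcript end, so CPM was not divided by gene length. A gene counted as past the fold when its KO to WT ratio was at least 1.5-fold in either direction.

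The stretch of 250 bases before the start of transcription is shown for the 4 genes on which the comparison between genotypes turned: Fosb and Jun, lower in KO resting-like barcodes, Dusp1, higher there, and Fos, higher in KO cycling-like barcodes. The sequences are from RefSeq on GRCm38.p6, and 8 of the 9 genes matched an entry. Capitals mark every match on either strand to the cyclic AMP response element (CRE, TGACGTCA), a variant of it (TGACATCA), the CRE half-site (TGACG, which is also part of the full CRE), the AP-1 site (TGANTCA), the TATA box (TATAAA) and the CArG box of serum response factor.
Fos, chr12:85473640-85473889, plus strand: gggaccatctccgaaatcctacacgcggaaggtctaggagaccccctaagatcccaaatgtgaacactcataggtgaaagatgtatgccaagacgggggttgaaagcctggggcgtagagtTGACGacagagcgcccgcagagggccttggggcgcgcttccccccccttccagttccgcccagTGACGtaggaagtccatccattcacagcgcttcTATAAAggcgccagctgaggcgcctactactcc
Fosb, chr7:19310046-19310295, minus strand: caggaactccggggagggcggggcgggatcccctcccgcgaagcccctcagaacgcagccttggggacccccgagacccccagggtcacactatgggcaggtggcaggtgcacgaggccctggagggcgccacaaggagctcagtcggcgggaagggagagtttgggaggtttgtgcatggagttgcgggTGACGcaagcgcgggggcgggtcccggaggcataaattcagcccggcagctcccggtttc
Jun, chr4:95052223-95052472, minus strand: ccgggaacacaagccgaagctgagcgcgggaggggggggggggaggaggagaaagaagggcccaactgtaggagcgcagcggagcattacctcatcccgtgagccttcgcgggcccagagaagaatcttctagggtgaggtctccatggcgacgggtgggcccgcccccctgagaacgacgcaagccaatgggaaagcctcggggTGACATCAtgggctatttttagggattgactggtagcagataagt
Dusp1, chr17:26508473-26508722, minus strand: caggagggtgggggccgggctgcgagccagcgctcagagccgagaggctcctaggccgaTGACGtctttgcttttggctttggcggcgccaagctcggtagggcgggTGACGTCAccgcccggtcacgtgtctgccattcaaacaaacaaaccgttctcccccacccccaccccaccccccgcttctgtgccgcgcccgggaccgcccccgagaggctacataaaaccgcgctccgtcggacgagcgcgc
The Dusp1 stretch held 1 full CRE, beginning 143 bases before the start, and a separate half-site at 191 bases. Fos held half-sites at 129 and 66 bases and a TATA box at 33 bases, Fosb held 1 half-site at 60 bases, and Jun held the variant TGACATCA at 45 bases. Over all 8 genes, 5 held a CRE half-site, 1 the full CRE, 1 the variant, 1 a TATA box and none an AP-1 site or a CArG box. The RefSeq starts used here did not always match the gene spans of GENCODE. The Jund stretch ended at 70697738, while its gene span began at 70698949, so the lack of matches for Jund concerns that stretch only. The Fosl2, Atf3 and Dusp1 stretches lay inside the spans of their genes. Among the 32851 promoter stretches of the same length in the table, 17.8% held the half-site, 1.55% the full CRE, 2.93% the variant, 6.75% the AP-1 site, 12.4% the TATA box and 1.47% the CArG box. These matches describe the letters in this window and say nothing about binding in these cells.

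On GRCm38, Fos lies on chromosome 12 (85473890 to 85477273, plus strand), Fosb on chromosome 7 (19302696 to 19310051, minus strand), Jun on chromosome 4 (95049034 to 95052222, minus strand) and Dusp1 on chromosome 17 (26505590 to 26562128, minus strand). Jun, Junb, Jund and Ier2 have a single exon, and Junb, Jund and Ier2 share chromosome 8. Opposite-strand genes overlap Jun (Junos), Junb (Prdx2), Jund (Gm11175), Atf3 (Gm24748) and Dusp1 (Ergic1 and Gm8225), and Dusp1 also overlaps AC122252.4 and AC122252.1 on its own strand. Whether the counting used strand is not given in the sources used here, so transcripts of these overlapping genes could not be told apart.

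The resting-like state had the highest member levels of the 4 named T-lineage states. The 9 genes together reached 3488 CPM in WT (35013 UMIs) and 3427 in KO (72047 UMIs), against 1657 to 2054 CPM in WT and 1901 to 2087 in KO in the other 3. Jund, the constitutive JUN subunit that restrains proliferation in several cell types, gave 35.1% of the members' UMIs in WT resting-like barcodes and 36.7% in KO. Junb gave 18.2% and 18.6%, Jun 14.7% and 12.2%, Fos 12.0% and 12.3%, and Ier2 9.36% and 9.85%. Fosl2 and Atf3 were close to absent, with 94 and 8 UMIs in WT and 174 and 20 in KO. Fos and Jun stood lower relative to the resting-like state than Jund did in the other 3 states of both libraries. In WT, effector-like barcodes held Fos at 0.386 (0.369 to 0.404) and Jun at 0.301 (0.287 to 0.314) of the resting-like level, but Jund at 0.790 (0.772 to 0.808). In KO, where the effector-like state held 113 barcodes, the values were 0.400 for Fos, 0.428 for Jun and 0.614 for Jund, with Junb above Jund at 0.682.

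**Figure D1:**
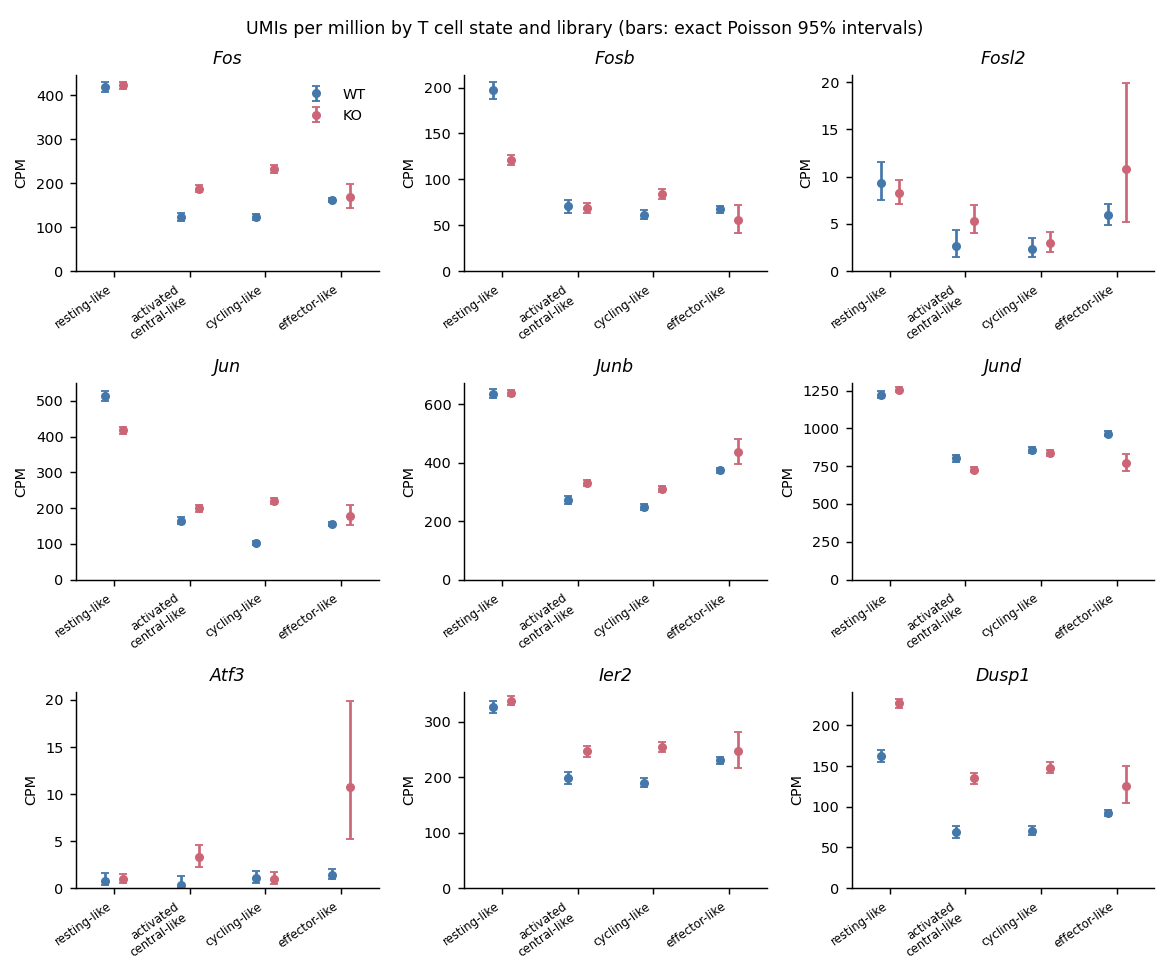
CPM of each of the 9 genes (vertical axes, linear from 0, a scale of its own per panel) in the 4 named T-lineage states, with WT in blue and KO in red, and bars are exact Poisson 95% intervals. All panels but those of Fosl2 and Atf3 are highest in the resting-like state in both libraries, and these 2 stay at or below 10.8 CPM throughout.

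Among the FOS subunits in resting-like barcodes, Fos, which pairs with JUN proteins as the classical inducible partner, differed by less than the counting error over the whole state. It stood at 419 CPM in WT and 422 in KO, a ratio of 1.01 (0.971 to 1.05). In the finer clustering, however, it was above 1 in both resting-like clusters, at 1.13 (1.07 to 1.19) in the larger one (957 WT and 2939 KO barcodes) and 1.21 (1.04 to 1.40) in the one led by interferon-induced genes (119 WT and 1195 KO), and 1.15 over both. These clusters held only 1076 WT and 4134 KO barcodes, against 2227 and 4906 in the whole state. An unnamed finer cluster (1115 WT and 686 KO barcodes) shared the leading genes Slfn5, Pik3ip1, St8sia6 and Gm2682 with the whole state. There Fos was at 0.979 (0.912 to 1.05). Fosb, a close paralogue of Fos, was lower in KO over the whole state at 121 CPM against 197, a ratio of 0.614 (0.579 to 0.652). Fosl2, also called Fra-2 and usually induced later, stood at 9.36 CPM in WT and 8.28 in KO, a ratio of 0.884 (0.684 to 1.15) whose interval held 1. Of the 8 members with at least 200 UMIs in the state, Fosb alone was past the fold, 1 lower and none higher. Over the 8011 genes tested there, 6.48% were lower and 2.02% higher in KO by 1.5-fold or more. The median log2 KO to WT ratio was 0.01 for the 8 members and -0.05 for all genes tested.

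Among the JUN subunits, Jun alone differed by more than a few per cent over the whole resting-like state. Jun stood at 514 CPM in WT and 417 in KO, a ratio of 0.810 (0.783 to 0.839), which did not reach the fold. Junb was at 636 and 638 CPM, a ratio of 1.00 (0.973 to 1.03), and Jund at 1223 and 1256, a ratio of 1.03 (1.01 to 1.05). Over the whole state Jun and Fosb were thus the lower pair in KO, while Fos, Junb and Jund stayed within a few per cent of WT. In the finer clustering Jun was at 0.860 (0.816 to 0.906) in the larger resting-like cluster and 0.927 over both. In the cluster led by interferon-induced genes Jun was at 1.08 (0.951 to 1.24), Junb at 1.11 (0.989 to 1.24) and Jund at 1.20 (1.10 to 1.31). Fosb was below 1 in both, at 0.760 (0.694 to 0.833) and 0.622 (0.510 to 0.763). In the unnamed finer cluster that shared leading genes with the state, Jun was at 0.817 (0.764 to 0.874) and Fosb at 0.549 (0.484 to 0.622). Junb was at 1.14 (1.08 to 1.21) and Jund at 1.07 (1.02 to 1.11) in that cluster. Of the 10 effector markers 8 were lower in KO by the fold in resting-like barcodes, with sums of 1202 CPM in WT and 1050 in KO. Their part in the Fosb and Jun values was not tested.

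Dusp1 encodes a nuclear phosphatase that switches off the p38, JNK and ERK MAP kinases and is itself induced by them. It was higher in KO in every named state. In resting-like barcodes it rested on 1630 WT and 4770 KO UMIs, or 162 and 227 CPM, a ratio of 1.40 (1.32 to 1.48). The ratio was 1.96 (1.75 to 2.20) in activated central-like barcodes, at 68.8 CPM in WT and 135 in KO. In cycling-like barcodes it was 2.10 (1.92 to 2.29), at 70.5 and 148 CPM. In effector-like barcodes it was 1.36 (1.12 to 1.64), at 92.1 and 125 CPM. The WT and KO intervals of the level did not overlap in any of the 4 states. With high counts, smaller differences also left such a gap, as for Jund in activated central-like barcodes (778 to 824 CPM in WT, 709 to 742 in KO). The share of all genes with such a gap was not counted. Ier2, a small nuclear protein induced alongside the FOS genes, did not follow it in resting-like barcodes, where it stood at 327 CPM in WT and 338 in KO, a ratio of 1.03 (0.992 to 1.08). Atf3, a stress-induced bZIP repressor, had 8 and 20 UMIs there, too few to place its ratio of 1.19 (0.504 to 3.13).

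**Figure D2:**
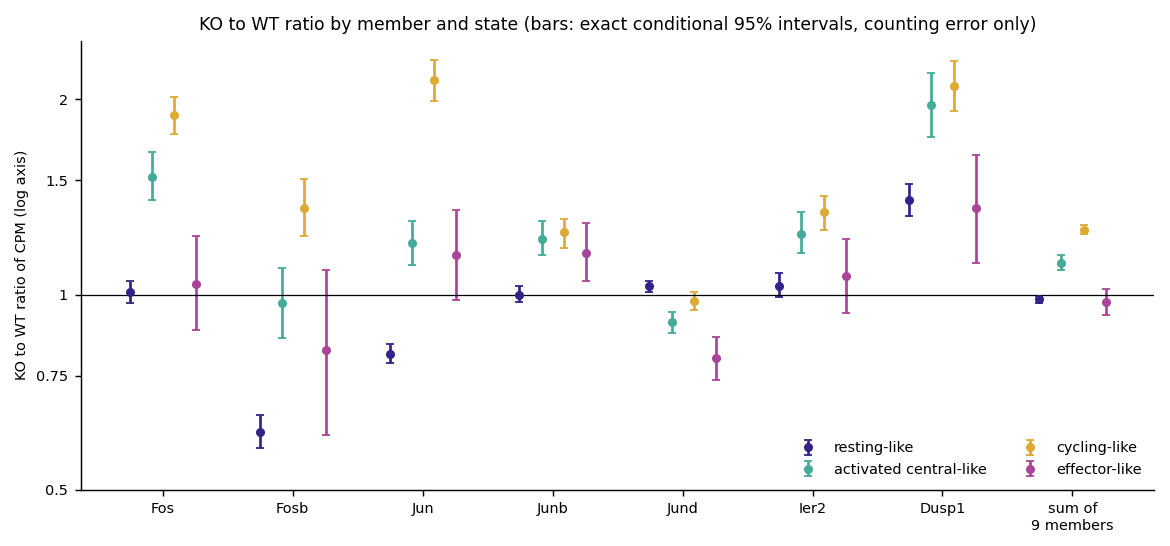
KO to WT ratio of CPM (log axis; the line marks 1) for the 7 genes with ample counts and for the sum of all 9, in the 4 named states; bars are exact conditional 95% intervals, which cover counting error only. Dusp1 lies above 1 in every state, from 1.36 to 2.10, Fosb lies lowest in resting-like barcodes at 0.614, and Fos and Jun run from about 1 or below in resting-like barcodes to 1.89 and 2.14 in cycling-like ones.

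In cycling-like barcodes most members were higher in KO. Jun stood at 103 CPM in WT and 219 in KO, a ratio of 2.14 (1.99 to 2.30), and Fos at 122 and 231, a ratio of 1.89 (1.77 to 2.02). Fosb was at 61.4 and 83.7 CPM, a ratio of 1.36 (1.23 to 1.51), in the opposite direction to resting-like barcodes. Ier2 had a ratio of 1.34 (1.26 to 1.42), Junb of 1.25 (1.18 to 1.31), and Jund of 0.976 (0.948 to 1.01). Fos, Jun and Dusp1, 3 of the 7 members tested, were higher by the fold and none lower, beside 5.95% higher and 6.05% lower over the 7171 genes tested. The sum of the 9 stood at 1657 and 2087 CPM, a ratio of 1.26 (1.24 to 1.28).

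The cycling-like barcodes of the 2 libraries also differed in what other cells they resembled. The 10 effector markers summed to 4737 CPM in WT and 1493 in KO, with all 10 lower in KO by the fold, and the 8 resting markers to 636 and 1102 CPM. The nuclear transcript Malat1 stood at 9531 and 13929 CPM, the 10 S-phase markers at 11543 and 6051, and the 8 erythroid markers at 471 and 1574. A finer clustering, chosen after these values were seen, set apart an effector cluster with histone genes that held 425 WT and 116 KO barcodes. Over all barcodes named cycling-like in the finer clustering, the ratio was 1.21 for Fos and 1.07 for Jun, Fosb turned to 0.852, and Dusp1 stayed above 1 at 1.49. In the finer cycling-like cluster led by histone genes (159 WT and 666 KO barcodes), the effector marker ratio was 0.905 (0.865 to 0.947). There Fos stood at 251 CPM in WT and 278 in KO, a ratio of 1.11 (0.990 to 1.24), and Jun at 263 and 230, a ratio of 0.876 (0.784 to 0.981). Fosb was at 0.777 (0.662 to 0.916) and Dusp1 at 1.44 (1.23 to 1.70). In the finer cycling-like cluster led by mitotic genes (72 WT and 338 KO barcodes), where the effector marker ratio was 0.462 (0.441 to 0.485), the ratio was 1.54 (1.25 to 1.91) for Fos and 1.78 (1.47 to 2.17) for Jun.

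Over all 11 finer T-lineage clusters with at least 50 barcodes in both libraries, Dusp1 kept its direction. Its ratio was above 1 in 11 of 11, from 1.07 to 2.25, and its interval lay above 1 in 9. Fosb was below 1 in 8 of 11, from 0.549 to 1.17, with the interval below 1 in 6 and above 1 in none. Fos was above 1 in 9 of 11, from 0.906 to 1.84, with 6 intervals above 1 and none below. Jun had 4 intervals above 1, 4 below and 3 that held 1, from 0.817 to 1.78, on both sides of 1. In the main clustering, however, Fos was lower in KO in the unnamed cluster 2 (137 WT and 4633 KO barcodes), at 0.613 (0.497 to 0.766). In the unnamed cluster 4 Fos was at 1.25 (1.06 to 1.46). Both directions turned when every barcode of at least 1000 UMIs was randomly thinned to that depth. Cluster 2 then averaged 0.178 Fos UMIs in 73 WT and 0.221 in 3886 KO barcodes. Cluster 4 averaged 0.539 in 525 WT and 0.423 in 239 KO barcodes. The 8 B lineage markers summed to 1688 CPM in WT and 224 in KO in cluster 2, and their part was not tested. Clusters of both clusterings share the same 2 libraries and are no replicates.

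**Figure D3:**
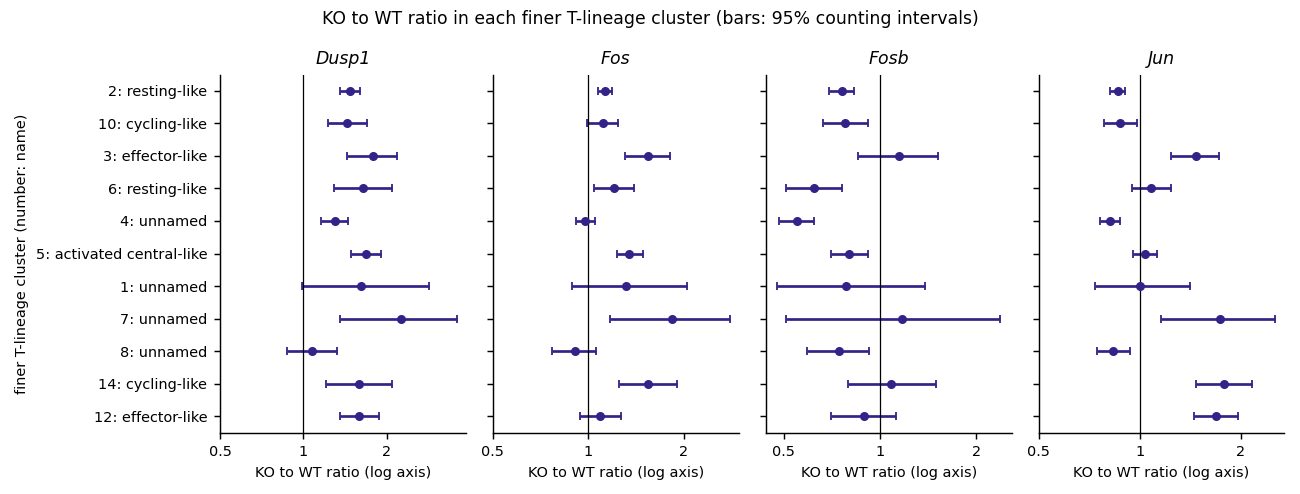
KO to WT ratio (log axis; the line marks 1) of Dusp1, Fos, Fosb and Jun in the 11 finer T-lineage clusters, ordered from top to bottom by falling KO to WT ratio of the summed effector markers; bars are exact conditional 95% intervals. Dusp1 is above 1 in all 11 clusters, Fosb is below 1 in 8, and Jun lies on both sides.

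In activated central-like barcodes Fos and Dusp1 were past the fold among the members with at least 200 UMIs. Fos stood at 123 CPM in WT and 187 in KO, a ratio of 1.52 (1.40 to 1.66). In the finer activated central-like cluster it fell short of the fold at 1.35 (1.23 to 1.49). A random thinning to 1000 UMIs gave 1.32. Another draw at that depth averaged 0.156 Fos UMIs in 513 WT and 0.236 in 1196 KO barcodes, so the thinned ratio depended on the draw. Without thinning, Fos and Dusp1 made 2 of the 7 members tested higher and none lower, beside 3.22% higher and 5.86% lower over the 6300 genes tested. Jun had a ratio of 1.20 (1.11 to 1.30), Junb of 1.22 (1.15 to 1.30) and Fosb of 0.971 (0.858 to 1.10), while Jund was lower at 725 CPM against 801, a ratio of 0.906 (0.873 to 0.940). Atf3 and Fosl2 were too sparse to be among those 7. Atf3 had 2 UMIs in WT and 34 in KO, a ratio of 9.31 (2.39 to 80.0), and Fosl2 had 15 and 55, a ratio of 2.01 (1.12 to 3.83). The effector markers summed to 1866 CPM in WT and 1009 in KO there, and their part in these ratios was not tested.

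The effector-like state rested on 113 KO barcodes with 1854 member UMIs. None of the 7 members tested was past the fold, beside 7.09% higher and 10.9% lower over the 7252 genes tested. Jund was at 966 CPM in WT and 771 in KO, a ratio of 0.798 (0.739 to 0.860), Junb had a ratio of 1.16 (1.05 to 1.29), which turned to 0.914 in the finer clustering, and Fos of 1.04 (0.882 to 1.23). After a random thinning to 1000 UMIs, Dusp1 at 1.87 and Fosb at 0.462 were past the fold. In another random draw at that depth, Fosb averaged 0.0811 UMIs a barcode in WT and 0.0796 in KO, and Dusp1 0.0976 and 0.195. The thinned Fosb value thus depended on the draw. Atf3, too sparse to be among those 7, had 29 UMIs in WT and 10 in KO, a ratio of 7.54 (3.28 to 15.9). Markers of CD8+ T and NK cells summed to 167 CPM in WT and 665 in KO, with 5 of 6 higher in KO by the fold, and the 12 heat-shock genes to 5481 and 7412 CPM. Their part in the member values was not tested.

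Over all T-lineage barcodes the sum of the 9 stood at 2281 CPM in WT and 2657 in KO, a ratio of 1.16 (1.16 to 1.17). With every barcode of at least 1000 UMIs thinned to that depth, and so given equal weight, the ratio of the sum was 1.00. Shallower barcodes dropped out unevenly, as cluster 4 kept 525 of 1521 WT barcodes and cluster 2 kept 3886 of 4633 KO ones. The total also mixed states of different size, since 29.6% of WT and 37.6% of KO T-lineage barcodes were resting-like and 32.1% and 0.865% effector-like. When the KO level of each of the 6 largest T-lineage clusters was weighted by the WT make-up, the ratio of the sum was 1.05 (1.03 to 1.06). Weighted in this way, Dusp1 had a ratio of 1.53 (1.43 to 1.64), Fos of 1.18 (1.12 to 1.24), Fosb of 0.833 (0.764 to 0.908) and Jund of 0.916 (0.890 to 0.943). Jund alone made up 980 of the 2281 CPM in WT and 990 of the 2657 in KO, so the sum says little about the less abundant members.

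The share of barcodes with a transcript gave the same order at equal depth. With every barcode of at least 1000 UMIs thinned to that depth, a Dusp1 UMI was found in 15.3% (13.8 to 16.9) of 2226 WT and 19.3% (18.2 to 20.5) of 4874 KO resting-like barcodes. For Fosb the shares were 16.8% (15.3 to 18.4) and 10.7% (9.82 to 11.6), for Jun 36.0% (34.0 to 38.1) and 30.4% (29.1 to 31.7), and for Fos 31.7% (29.7 to 33.6) and 31.2% (29.9 to 32.6). Without thinning, the Dusp1 shares were 45.7% and 51.2% and the Fosb shares 46.1% and 31.0%, at median depths of 4210 and 3800 UMIs. Erythroid-like barcodes served as a comparison for free RNA, although erythroid cells may express these genes themselves. There the Dusp1 share at 1000 UMIs was 2.07% (0.677 to 4.77) of 241 WT and 10.3% (7.64 to 13.4) of 458 KO barcodes, and the Fosb share 1.66% (0.454 to 4.19) and 2.62% (1.36 to 4.53). Their median depths were 4471 and 2510 UMIs, and the 7 T-lineage markers summed to 965 CPM in WT and 1636 in KO there, against 6800 and 6243 over T-lineage barcodes. Dusp1 stood at 57.2 CPM in WT erythroid-like barcodes against 103 over T-lineage ones, a smaller gap than that of the T-lineage markers, and whether free RNA had a part in the Dusp1 difference was not tested.

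Single barcodes varied more than counting alone gives. At 2000 UMIs per resting-like barcode the variance over the mean, which is 1 for pure counting, was 1.90 in WT and 2.06 in KO for Jun, 1.67 and 1.79 for Fos, 1.44 and 1.37 for Fosb, and 1.32 and 1.41 for Jund. Ier2 and Dusp1 were closest to counting among the abundant members, at 1.22 and 1.20 in WT. Correlations between members across these 2187 WT and 4341 KO barcodes were weak, the highest being 0.24 in WT and 0.23 in KO between Fos and Fosb, with 0.15 and 0.19 between Fos and Jun. The barcodes share a library and the counts are sparse, so no relation was read from them.

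Across the 13 sums of T-lineage cluster and library, Atf3 rested on 0 to 34 UMIs a sum, too few for its correlations to be read. Pearson's r of log2(CPM + 1) ran from 0.45 to 0.96 among the other 8 members. It was 0.96 between Ier2 and Dusp1, 0.94 between Fosb and Jun and 0.93 between Fos and Jun. Of 7205 genes with at least 1000 UMIs, those most like the mean of the members included Abcg1, Ccnl1, Ier5 and Zfp36 at 0.97 and Malat1, Ikbke and Actn1 at 0.96. Zfp36 and Ier5 are themselves immediate early genes, whereas Malat1, a nuclear RNA, ran from 9531 to 48654 CPM over the 13 sums. The points share libraries, depth and nuclear RNA content, and these values are a description.

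The other genes of the pathway were taken from lists. Of the 30 other immediate early genes tested in resting-like barcodes, 5 (16.7%) were higher and 3 (10.0%) lower in KO by the fold, beside 2.02% and 6.48% of all genes tested, with a median log2 ratio of 0.16. Gadd45b, a stress-induced activator of MAP kinase kinase kinases, was at 119 CPM in WT and 234 in KO, a ratio of 1.96 (1.84 to 2.09), and Csrnp1 at 28.4 and 50.9, a ratio of 1.79 (1.57 to 2.05). Egr2, a zinc finger factor induced by T cell receptor signals, was lower at 6.37 CPM against 12.3, a ratio of 0.520 (0.404 to 0.670). In cycling-like barcodes 11 of the 26 tested were higher and 1 lower, beside 5.95% and 6.05% of all genes tested. The median was 0.54 there, beside 0.03 for all genes tested. There Gadd45b had a ratio of 1.92 (1.76 to 2.08) and Csrnp1 of 2.00 (1.64 to 2.45).

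**Figure D4:**
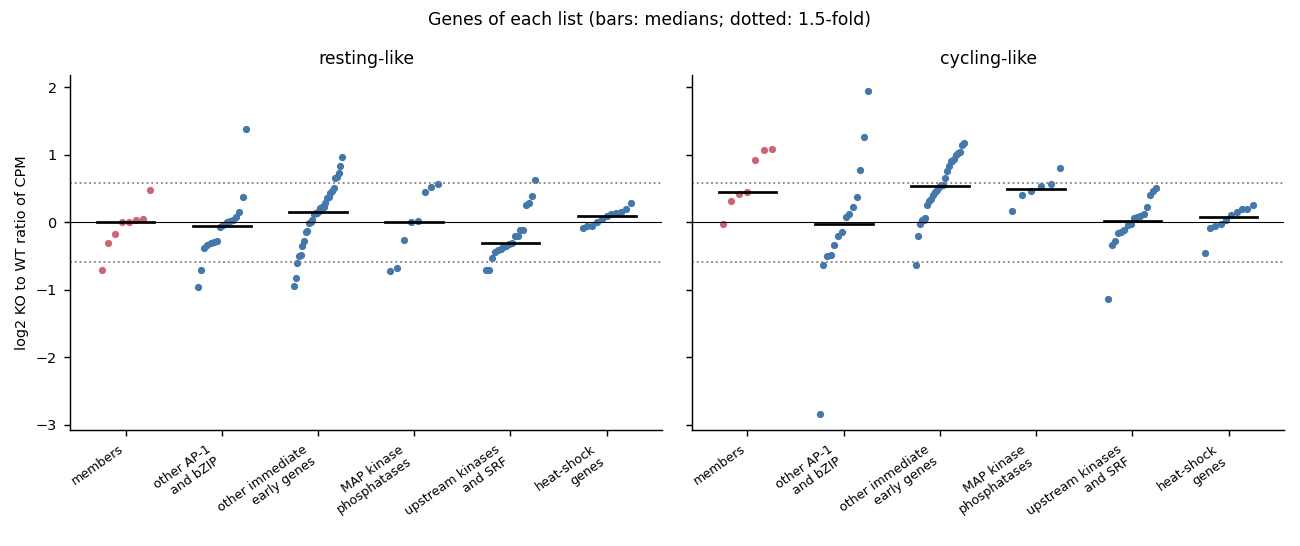
log2 KO to WT ratio of CPM of each tested gene of the members (red) and of 5 pathway lists (blue) in resting-like and cycling-like barcodes; black bars are medians and dotted lines mark 1.5-fold. The list medians lie between -0.31 and 0.16 in resting-like barcodes, and the other immediate early genes have the highest list median, 0.54, in cycling-like ones.

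Among the other AP-1 and bZIP partners, 1 of 16 tested in resting-like barcodes (6.25%) was higher and 2 (12.5%) were lower, with a median of -0.06. Over all genes tested the shares were 2.02% and 6.48%, and counts this small are not a result about the list. Atf5, a bZIP factor of the stress response, had a ratio of 2.64 (1.82 to 3.93) on 34 WT and 188 KO UMIs. Maf, a bZIP factor of effector T cells, was at 35.2 CPM in WT and 18.1 in KO, a ratio of 0.514 (0.444 to 0.596), and in cycling-like barcodes its ratio was 0.139 (0.114 to 0.169). Creb1, which binds the CRE, was at 60.5 and 37.3 CPM, a ratio of 0.618 (0.555 to 0.688), and stands in the list of upstream regulators as well.

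Among the MAP kinase phosphatases and feedback inhibitors other than Dusp1, none of the 8 tested in resting-like barcodes was higher by the fold and 2 (25.0%) were lower. Over all genes tested the shares were 2.02% and 6.48%, and counts this small are not a result about the list. Dusp5, a nuclear ERK phosphatase, came close with 56.6 CPM in WT and 83.9 in KO, a ratio of 1.48 (1.35 to 1.63). Dusp6, a cytoplasmic ERK phosphatase, had a ratio of 0.607 (0.501 to 0.736) and Dusp7 of 0.629 (0.488 to 0.814). Of the 18 upstream kinases and serum response factor cofactors tested, 1 (5.56%) was higher and 2 (11.1%) lower, beside 2.02% and 6.48% of all genes tested, with a median of -0.31, and counts this small are not a result about the list. Map3k8, a kinase upstream of ERK, was at 23.7 and 36.4 CPM, a ratio of 1.53 (1.33 to 1.78), and Elk4, a serum response factor partner, at 64.9 and 40.1, a ratio of 0.618 (0.557 to 0.685).

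The heat-shock genes that accompany tissue handling did not pass the fold in resting-like barcodes. None of the 11 tested was past it, beside 2.02% higher and 6.48% lower over all genes tested. The median log2 ratio was 0.10, and the 12 together summed to 5025 CPM in WT and 5578 in KO. Hspa8 had a ratio of 1.22 (1.20 to 1.25), Hsp90aa1 of 1.14 (1.10 to 1.17) and Hsp90ab1 of 1.11 (1.09 to 1.13). The 8 erythroid markers, which stand for free RNA in T-lineage barcodes, summed to 494 CPM in WT and 1011 in KO resting-like barcodes, and Malat1 stood at 31267 and 28016. Whether these values had a part in the member ratios was not tested.

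Within resting-like barcodes the Fosb, Jun and Dusp1 differences were also seen at matched depth and at matched mitochondrial share. In barcodes of 2000 to 4000, 4000 to 6000 and 6000 to 10000 UMIs, the Fosb ratio was 0.632, 0.614 and 0.611, the Jun ratio 0.793, 0.800 and 0.876, and the Dusp1 ratio 1.34, 1.42 and 1.51. Across the bins of 1 to 5% mitochondrial UMIs the Fosb ratio ran from 0.576 to 0.686, the Jun ratio from 0.681 to 0.931 and the Dusp1 ratio from 1.17 to 1.45. In the bin of 4 to 5% the Dusp1 interval (0.935 to 1.47) held 1, and in that of 1 to 2% the Jun interval (0.860 to 1.01) did. These bins were chosen after the data had been seen.

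The mitochondrial filter bore on the members because their level differed between bins of the mitochondrial share. Over all barcodes with at least 300 genes, the sum of the 9 stood at 1849 CPM in WT and 2384 in KO at 1 to 2% mitochondrial UMIs. It reached 3799 and 3189 at 5 to 7% and 4222 and 3871 at 7 to 10%, all removed by the filter, and was 1594 and 2130 above 20%. The filter removed 6468 WT and 4364 KO barcodes for their mitochondrial share. The order of the libraries turned between the bins, with KO above WT up to 4% WT above KO from 4 to 10% and KO above WT beyond 10%. In resting-like barcodes, with the removed ones assigned by their nearest neighbours, the sum stayed between 3407 and 3704 CPM in WT and between 3359 and 3543 in KO from 1 to 10%, so the rise over all barcodes was not seen within that state.

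**Figure D5:**
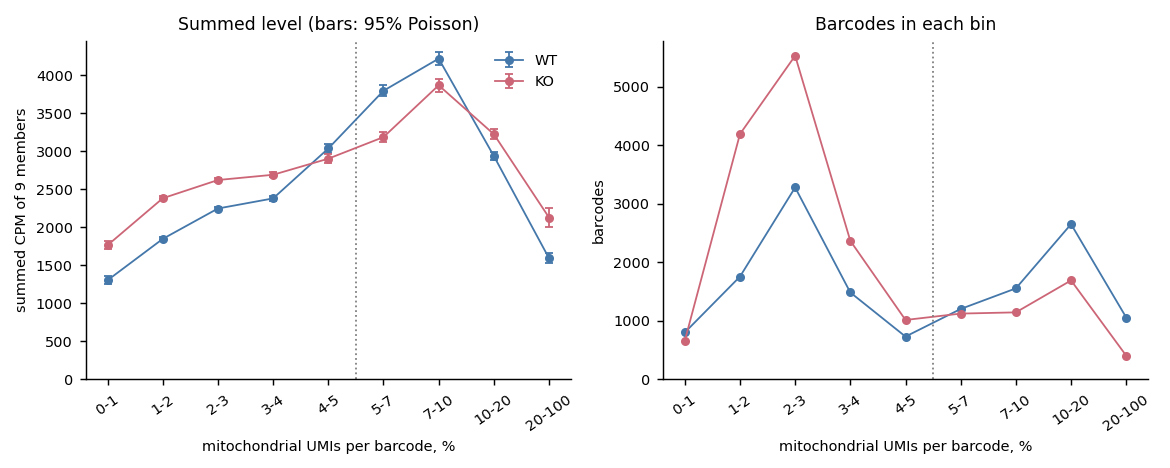
Summed CPM of the 9 genes (left, bars are exact Poisson 95% intervals) and number of barcodes (right) by mitochondrial share of the barcode for WT (blue) and KO (red), removed barcodes included; both vertical axes start at 0, and the dotted line marks the 5% filter. The level peaks at 7 to 10%, at 4222 CPM in WT and 3871 in KO, and WT has more barcodes than KO in every bin beyond the filter.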

How the data were processed

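The deposited files hold counts: per the authors' methods and the submitters' processing notes, reads were processed with Cell Ranger 5.0.1 against mm10 into UMI counts per gene and barcode, with no further normalization, and the annotation release is not given in the sources used here. The libraries held 64567991 UMIs over 14524 barcodes (WT) and 65480052 over 18134 (KO), and 0 columns stayed unmatched to a sample.

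Barcodes with fewer than 300 genes or over 5% mitochondrial UMIs were dropped. The rest were clustered (scanpy 1.11.5, igraph 0.11.9, Python 3.11.15) on 2000 variable genes, 30 principal components and 20 neighbours at Leiden resolution 0.5, leaving out 234 genes, among them the members and the pathway lists. The rule that named clusters from markers was set after clusters had been seen, and cell types may differ from the study's own. Doublets were not removed in the values given.

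UMIs were summed per state and library. CPM carry exact Poisson intervals, ratios exact conditional binomial ones and shares Clopper-Pearson ones (scipy 1.17.1), all at 95% and for counting error only. Ratios of genes with at least 200 UMIs over both libraries were set against a 1.5-fold limit. No count model was fitted, since each genotype had 1 library. TMM factors (edgeR 4.0.16, R 4.3.3) served as an alternative, beside other filters, scalings, resolutions and thinning. Steps were tested on simulated data.

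Gene positions and overlaps are from GENCODE on GRCm38, and upstream sequences from RefSeq on GRCm38.p6. The members, lists and tests were chosen with earlier results of these data known. Named were all members, the 3 genes of each list with the largest resting-like log2 ratio in size, and the 8 genes most like the members, of which 1 is not reported here.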

Additional observations from a re-analysis of the deposited data

Results flagged for a closer look

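The genes below had KO to WT ratios on opposite sides of 1 in different T-lineage states, with counting intervals that did not reach 1. In each case the difference between states was not tested, since each genotype had 1 library. Fosb had a ratio of 0.614 in resting-like and 1.36 in cycling-like barcodes. Jun had a ratio of 0.810 in resting-like, 1.20 in activated central-like and 2.14 in cycling-like barcodes. Jund, the most abundant member by UMIs, had a ratio of 1.03 in resting-like, 0.906 in activated central-like and 0.798 in effector-like barcodes, the last from 113 KO barcodes. The effector markers had a KO to WT ratio of 0.873 in resting-like, 0.541 in activated central-like and 0.315 in cycling-like barcodes, and their part in these differences was not tested. At Leiden resolution 1.0 the cycling-like ratio was 0.852 for Fosb, on the same side of 1 as in resting-like barcodes, and 1.07 for Jun.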

How the results depend on the processing

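The ratio of the summed members was recomputed under 21 alternatives per state. In resting-like barcodes (0.983) it was 1.05 at Leiden resolution 1.0, 1.02 with median-of-ratios scaling, 1.07 with TMM factors, and 1.00, 1.01, 0.959 and 0.962 without Fosb, Jun, Jund or Dusp1, so its direction depended on the scaling, the resolution and the inclusion of Jun. In activated central-like barcodes (1.12) it was 0.998 at resolution 1.0, 1.15 without haemoglobin, granule, mitochondrial and ribosomal protein genes in the totals, 1.17 and 1.19 with the 2 scalings, 1.08 as a mean over barcodes, 1.05 after thinning to 1000 UMIs, and 1.09, 1.31 and 1.08 without Fos, Jund or Dusp1. In cycling-like barcodes (1.26) it was 1.09 at resolution 1.0, 1.23 as a mean over barcodes, and 1.21, 1.20, 1.56 and 1.22 without Fos, Jun, Jund or Dusp1. In effector-like barcodes (0.975) it was 0.838 at resolution 1.0, 1.03 as a mean over barcodes and 1.13 without Jund. Over T-lineage barcodes (1.16) it was 1.11 with up to 10% mitochondrial UMIs and 1.11 with no such filter, 1.21 with the reduced totals, 1.22 and 1.23 with the 2 scalings, 1.03 as a mean over barcodes, 1.00 after thinning, 1.18 without barcodes over 1% haemoglobin and granule UMIs, and 1.14, 1.15, 1.28 and 1.14 without Fos, Jun, Jund or Dusp1. Of the single members, Dusp1 stayed above 1 in all 12 alternatives of each state, from 1.36 to 1.53 in resting-like barcodes, and resting-like Fosb stayed below 1 in all 12, from 0.614 to 0.754. Fosl2 in effector-like barcodes turned from 1.82 to 0.925 at resolution 1.0, on few UMIs, and at the same resolution effector-like Junb turned from 1.16 to 0.914 and cycling-like Fosb from 1.36 to 0.852, while cycling-like Jun went from 2.14 to 1.07. Over T-lineage barcodes Fosb ran from 0.753 to 1.03 and Jun from 0.903 to 1.36. Resting-like Jun stayed below 1 in all 12, from 0.767 to 0.927, the highest at resolution 1.0. At that resolution the resting-like name covered 1076 WT and 4134 KO barcodes, against 2227 and 4906 in the main clustering. At 2-fold no member was past the limit in resting-like barcodes, and with a minimum of 1 UMI 7.84% of genes were higher and 22.8% lower by 1.5-fold. The cause of these shifts was not tested. No paired analysis was possible because each genotype had 1 library and no test was run. Depth limits Atf3 and Fosl2 throughout, and spread between mice could not be measured.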

Other observations

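Barcodes of other lineages held the members in other proportions. Atf3, at or below 10.8 CPM in the named T-lineage states, stood at 47.3 CPM (39.6 to 56.1) in 197 WT and 46.3 (38.3 to 55.4) in 193 KO neutrophil-like barcodes. Fos stood at 230 CPM (213 to 249) in WT and 148 (133 to 163) in KO there, and Jun at 566 (538 to 594) and 522 (495 to 551). Dusp1 stood at 87.8 CPM (77.2 to 99.5) and 80.9 (70.3 to 92.7) in these barcodes, with overlapping intervals. In B lineage-like barcodes, 42 in WT and 30 in KO, the 9 genes summed to 3175 and 2918 CPM, and in erythroid-like barcodes to 747 and 947. Among the unnamed T-lineage clusters, cluster 4 held the sum at 3688 CPM in WT and 4312 in KO, and Jun alone at 701 and 902, at median depths of 767 and 1134 UMIs. The higher KO values were not seen in its barcodes of at least 1000 UMIs thinned to that depth. There the sum averaged 4.87 UMIs in 525 WT and 4.46 in 239 KO barcodes, and Jun 1.03 in each library. In the finer cluster led by Gm26917 and AY036118 (600 WT and 313 KO barcodes), the ratio of the sum was 0.867 (0.823 to 0.913).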
